A study of Homo sapiens with 6 samples.

Results

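Chromatin regulators that are recurrently mutated in B-cell lymphoma were examined in SU-DHL-2 cells, an established line of diffuse large B-cell lymphoma (DLBCL), cultured with or without interleukin-17A (IL-17A). The 10 genes were EZH2, SUZ12, KMT2C, KMT2D, CREBBP, EP300, DNMT1, DNMT3A, TET2 and ARID1A. Their probes were found by the RefSeq transcript accession that the array files give for each probe, without use of any measured value. This yielded 16 of the 34127 probes on the array, and the 10 genes were among 19740 genes that could be named in this way. RNA was taken from 3 samples of SU-DHL-2 cells kept for 72 h with IL-17A at 200 pg/ml and from 3 control samples kept without it, each on a 1-colour Agilent Whole Human Genome array. All 6 samples were of the same line and medium, so the data describe 1 line at 1 dose and 1 time, and nothing in the labels says whether the samples came from separate cultures. The p-values therefore measure the spread between these samples, which may be technical. The question addressed was whether the RNA of these regulators differed between DLBCL cells with and without this cytokine.

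These genes encode enzymes, or subunits of enzyme complexes, that write or remove marks on histones and DNA or, for ARID1A, move nucleosomes. EZH2 and SUZ12 belong to polycomb repressive complex 2 (PRC2), which methylates lysine 27 of histone H3 and silences genes, and activating mutations of EZH2 are well known from germinal-centre lymphomas. KMT2C and KMT2D methylate lysine 4 of histone H3 at enhancers, and CREBBP and EP300 acetylate histones at the same kind of element. DNMT1 and DNMT3A methylate cytosines in DNA, TET2 oxidizes methylated cytosines on the way to their removal, and ARID1A is a subunit of the BAF complex, which moves nucleosomes. Loss-of-function mutations of KMT2D, CREBBP, EP300, TET2 and ARID1A are found in B-cell lymphomas. The arrays measured RNA, and neither mutations, proteins nor histone marks were measured on them. SU-DHL-2 belongs to the activated B-cell-like type of DLBCL, and IL-17A is a cytokine of T helper 17 cells.

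The promoters of the genes, stretches of DNA around the transcription start, are shown for TET2 and for the pair KMT2C and KMT2D, since TET2 had the one probe that passed the test and the differences of the paralogues KMT2C and KMT2D had opposite signs. The windows span 250 bases before to 50 bases after an annotated start, from RefSeq on GRCh38.p14, and CpG dinucleotides, the sites that DNMT1 and DNMT3A methylate, are in capitals. They lie at chr4:105145625-105145924 and chr4:105146626-105146925 on the plus strand for the annotated starts of TET2, at chr7:152435954-152436253 on the minus strand for KMT2C, and at chr12:49060745-49061044 on the minus strand for KMT2D. Each is printed 5′ to 3′ on the strand of the gene.
TET2, upstream start: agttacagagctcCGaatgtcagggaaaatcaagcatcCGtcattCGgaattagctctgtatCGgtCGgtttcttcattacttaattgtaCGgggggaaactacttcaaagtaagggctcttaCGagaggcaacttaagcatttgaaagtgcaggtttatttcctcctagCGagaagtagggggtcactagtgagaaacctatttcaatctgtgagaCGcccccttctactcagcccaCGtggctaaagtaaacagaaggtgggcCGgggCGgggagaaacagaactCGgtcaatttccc
TET2, downstream start: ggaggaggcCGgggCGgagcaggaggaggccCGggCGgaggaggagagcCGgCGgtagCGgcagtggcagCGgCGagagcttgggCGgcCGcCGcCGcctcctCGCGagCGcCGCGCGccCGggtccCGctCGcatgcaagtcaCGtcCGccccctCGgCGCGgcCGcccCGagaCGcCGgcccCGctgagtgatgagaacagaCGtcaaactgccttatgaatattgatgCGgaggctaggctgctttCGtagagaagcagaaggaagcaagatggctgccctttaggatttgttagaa
KMT2C: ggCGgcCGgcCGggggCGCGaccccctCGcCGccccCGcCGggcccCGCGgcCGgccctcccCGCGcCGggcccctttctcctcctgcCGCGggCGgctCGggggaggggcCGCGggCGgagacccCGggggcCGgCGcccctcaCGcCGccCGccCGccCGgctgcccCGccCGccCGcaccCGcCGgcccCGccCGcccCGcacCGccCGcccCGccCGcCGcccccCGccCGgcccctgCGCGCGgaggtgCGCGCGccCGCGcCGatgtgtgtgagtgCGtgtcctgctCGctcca
KMT2D: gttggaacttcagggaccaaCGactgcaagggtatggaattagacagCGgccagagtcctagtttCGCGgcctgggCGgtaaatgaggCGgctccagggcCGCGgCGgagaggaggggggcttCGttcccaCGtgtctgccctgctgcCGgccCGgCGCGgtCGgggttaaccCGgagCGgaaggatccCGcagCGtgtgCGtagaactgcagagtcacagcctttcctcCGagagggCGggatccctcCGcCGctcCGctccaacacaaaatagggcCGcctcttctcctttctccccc

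The upstream TET2 window held 13 CpG dinucleotides and the downstream one 35. The KMT2C window held 56 and the KMT2D window 27. All 10 genes matched, with 18 windows in all, of which those of DNMT3A overlap in part. The windows held between 13 and 56 CpG dinucleotides with a median of 34, whereas the median over all 35116 promoters of this length was 14. The E2F motif, searched as TTTGGCGC and TTTCGCGC on both strands, was found in 2 of the 18 windows, an EZH2 window and the DNMT1 window, and in 1.15% of all promoters. The kappaB motif was found in 0 of the 18 windows and in 5.91% of all promoters. These matches describe letters in the windows only.

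All 16 probes were well above background on all 6 arrays, and all were among the 23945 probes tested. A tested probe was one detected on at least 3 of the 6 arrays, and 23570 to 24077 probes were detected per array. Values are log2 intensities after quantile normalization, and a difference is IL-17A minus control on that scale. Each gene was represented by its brightest probe, and the levels of different probes were not compared. Passing the test means an adjusted p under 0.05 from limma (Benjamini-Hochberg, all tested probes together). The arrays were read in 2 scans, of which the first held the 3 controls and IL-17A replicate 1 and the second IL-17A replicates 2 and 3. The labels do not name the slides, so a slide here means the arrays that shared a scan. Slide in this sense is partly confounded with treatment. Beside a difference, the within-slide value is IL-17A replicate 1 minus the mean of the controls. A fit with slide as a block gives this same value, since the second slide held no controls, and is no separate check.

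At their brightest probes, the RNA of all 10 regulators differed by less than 1.5-fold between the groups. A dimmer TET2 probe, given below, changed by more. Of the 10 genes at their brightest probes, 0 passed the test by limma, beside 7.85% of the 14747 named genes (4.37% higher and 3.48% lower with IL-17A). With 10 genes, a count of 0 is close to that share. At an unadjusted p under 0.05, 2 of the 10 differed, KMT2D and EP300, both lower with IL-17A, beside 31.8% of all genes. This count was 0 without normalization. For the same 2 genes all IL-17A arrays lay on one side of all controls, as for 40.6% of all genes. At a threshold on size, a change of at least 1.5-fold with an unadjusted p under 0.05, 0 of the 10 passed, beside 1.92% of all genes. The 10 log2 fold changes ran from -0.26 to 0.16 with a median of 0.06, and their median size was 0.098, beside a median size of 0.113 over all genes. The 95% intervals of the 10 genes, not adjusted for their number, lay between -0.46 and 0.35, inside the bounds of a 1.5-fold change at 0.58 on either side of 0.

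**Figure D1:**
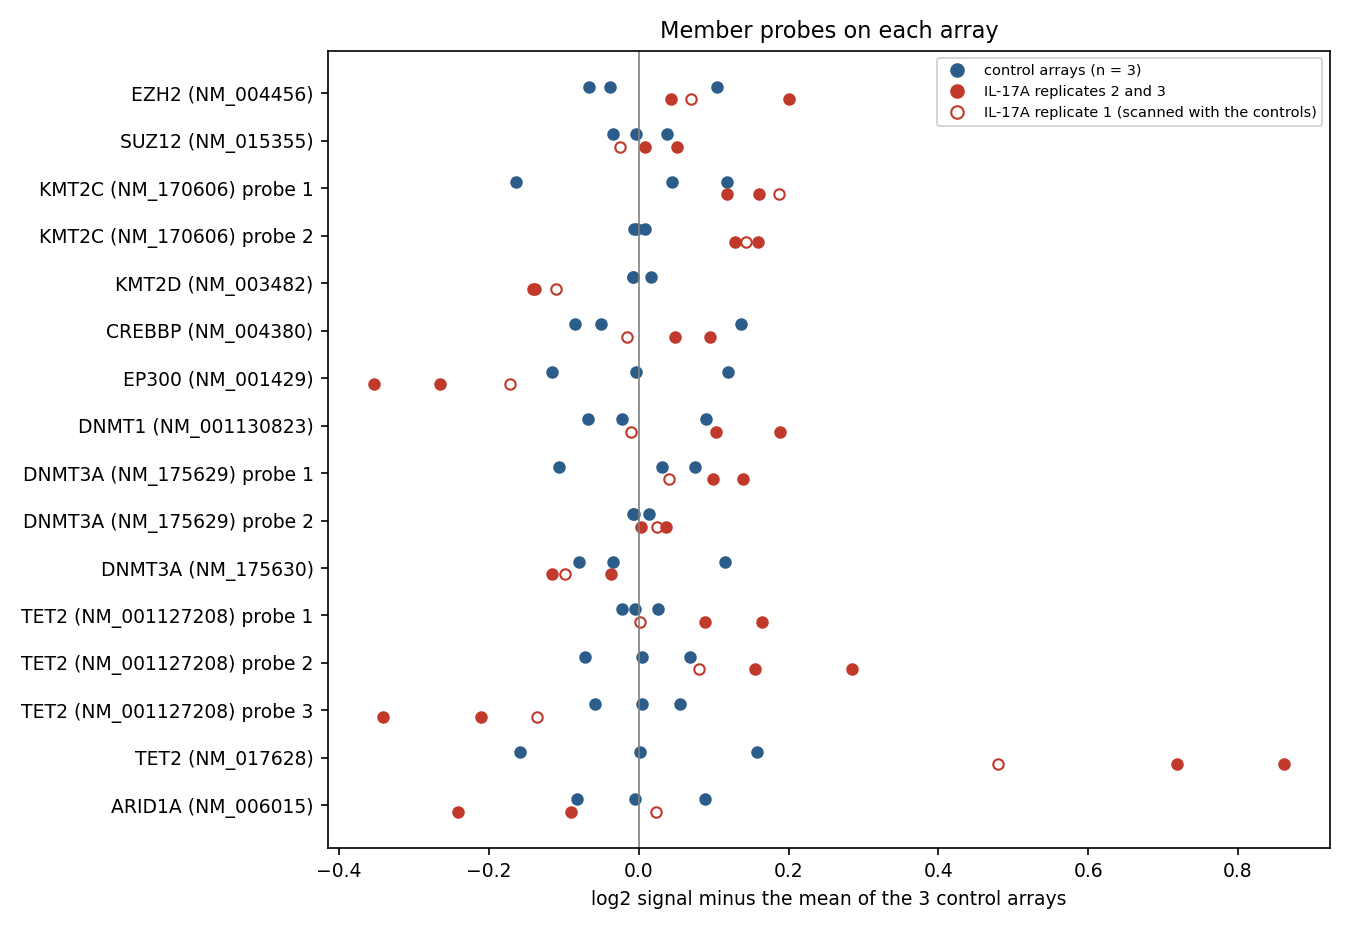
Log2 signal of each of the 16 probes on each array, minus the mean of the 3 controls for that probe (controls blue, IL-17A red, open circle for IL-17A replicate 1, scanned with the controls). The groups overlap for 10 of the 16 probes, and the TET2 probe of NM_017628 lies farthest to the right, 0.48 or more above its control mean on each IL-17A array.

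Counted by probe, 1 of the 16 passed the test, a TET2 probe with a higher signal under IL-17A, and 7.59% of all tested probes passed. It was also the only one past the 1.5-fold rule, which 2.18% of all probes passed. An unadjusted p under 0.05 was reached by 6 of the 16 probes, 3 higher and 3 lower, and by 31.3% of all probes. The groups did not overlap for 6 of the 16, also 3 higher and 3 lower, and for 38.9% of all probes. These shares for the members rest on probes that share genes, since TET2 had 4 probes, DNMT3A 3, KMT2C 2 and each of the other 7 genes 1.

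**Figure D2:**
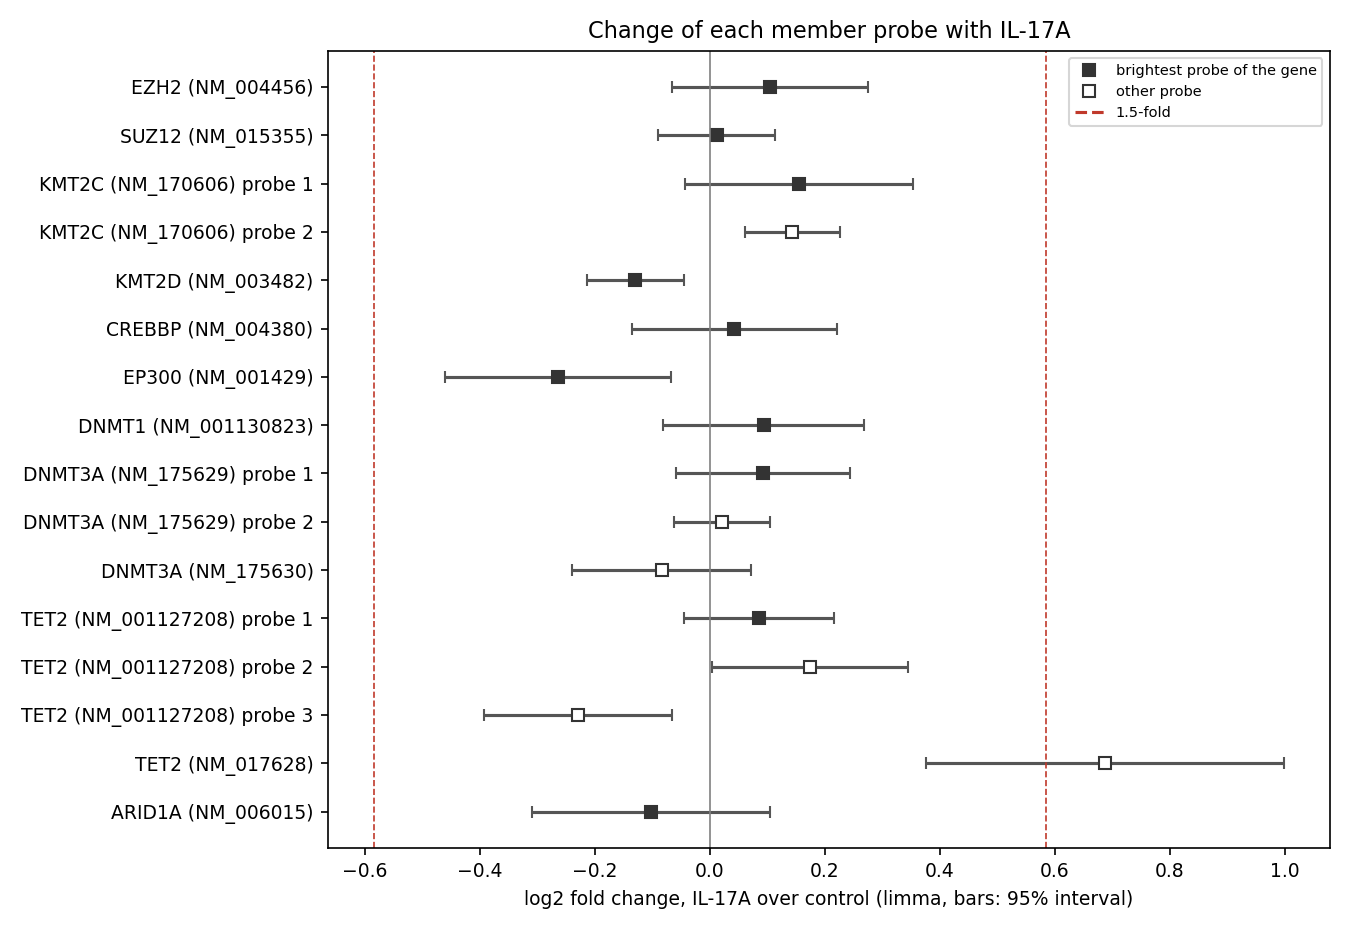
Log2 fold change of each of the 16 probes, IL-17A over control, with its 95% interval from limma (filled squares, brightest probe of a gene; open squares, other probes; dashed lines, 1.5-fold). The brightest probes lie between -0.26 and 0.16, and the probe of NM_017628 at 0.69.

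Of the PRC2 members, EZH2, the methyltransferase itself, had log2 signals of 11.39, 11.52 and 11.37 with IL-17A and of 11.26, 11.29 and 11.43 in the controls. The third control lay among the IL-17A values, so the groups overlapped. The difference was 0.10 (standard error 0.07, 95% interval -0.07 to 0.27, adjusted p = 0.344 from limma), with a within-slide value of 0.07. SUZ12, the subunit that holds the complex together, had log2 signals of 11.40, 11.48 and 11.43 with IL-17A and of 11.39, 11.42 and 11.46 in the controls. The values of the groups were interleaved, and the difference of 0.01 (standard error 0.04, 95% interval -0.09 to 0.11, adjusted p = 0.873 from limma) was the smallest of the 10 genes. The SUZ12 probe was printed in 10 spots on each array, and the SD of the log2 intensity over these spots was 0.030 to 0.058.

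Of the 8 partner genes of PRC2 that were tested, among them EZH1, RBBP4 and JARID2, 0 passed the test by limma, 2 had an unadjusted p under 0.05, and the median log2 fold change was 0.03. The 2 genes, named after their values were seen, were JARID2, which brings PRC2 to its targets, at 0.41 (adjusted p = 0.142), and MTF2, which does likewise, at 0.11 (adjusted p = 0.0965). Of the H3K27 demethylases, which remove the mark, KDM6A differed by 0.06 (adjusted p = 0.296 from limma) and KDM6B by 0.31 (adjusted p = 0.0846).

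Of 7 genes known as targets of PRC2 repression in B cells or elsewhere, 2 passed the test, both higher with IL-17A, beside 7.85% of all genes. The list was chosen with earlier results of these data known, so it cannot show whether PRC2 targets shifted as a set. That was not tested. XBP1, a transcription factor of the secretory programme of plasma cells, had log2 signals of 11.15, 11.19 and 11.17 with IL-17A and of 10.76, 10.78 and 10.82 in the controls. PRDM1, which encodes the repressor BLIMP1 that ends the B-cell programme, had 6.04, 6.03 and 6.00 with IL-17A and 5.58, 5.60 and 5.75 in the controls. In both genes, every IL-17A array lay above every control. XBP1 rose by 0.38 (1.30-fold, adjusted p = 0.0286 from limma) and PRDM1 also by 0.38 (1.30-fold, adjusted p = 0.0327 from limma), and the within-slide values were 0.36 and 0.40. A dimmer PRDM1 probe was higher by 0.43 (adjusted p = 0.188). The other 5 genes were the cell cycle inhibitors CDKN1A, CDKN1B, CDKN2A and CDKN2B and the transcription factor IRF4, with differences from -0.29 to 0.26, and the median of the 7 was 0.24.

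Of the H3K4 methyltransferases, KMT2D, one of the genes most often mutated in DLBCL, had log2 signals of 10.36, 10.33 and 10.33 with IL-17A and of 10.49, 10.46 and 10.46 in the controls. The arrays of each group lay close together and all IL-17A values were below all control values. The difference was -0.13 (standard error 0.03, 95% interval -0.21 to -0.05), which corresponds to a 1.09-fold lower signal. The unadjusted p was 0.0096 and the adjusted p 0.0705 from limma, so KMT2D did not pass, and its within-slide value was -0.11. It passed under 5 of 18 alternative settings, with values of -0.14 to -0.09 over all 18.

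KMT2C, its paralogue, had log2 signals of 12.02, 11.99 and 11.95 at its brightest probe with IL-17A and of 11.67, 11.87 and 11.95 in the controls. The control arrays were spread over a wider range than the IL-17A arrays and overlapped them, and the difference was 0.16 (standard error 0.08, adjusted p = 0.241 from limma). At the other KMT2C probe the signals were 7.97, 7.99 and 7.96 against 7.84, 7.82 and 7.82. There the groups did not overlap, and the difference of 0.14 (standard error 0.03, 95% interval 0.06 to 0.23, within-slide value 0.14) had an adjusted p of 0.0582 from limma and passed under 4 of 17 alternative settings. The pair of KMT2C probes thus differed by like amounts with unlike spread, in the direction opposite to KMT2D, and neither gene passed the test.

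Among 11 other genes of the H3K4 methyltransferase complexes, 1 passed the test, and the median was -0.05. KMT2A, the methyltransferase known as MLL, was higher by 0.22 at its brightest probe (adjusted p = 0.0475 from limma, within-slide value 0.25). Its signals there were 10.89, 10.84 and 10.86 with IL-17A and 10.59, 10.62 and 10.71 in the controls. The 4 KMT2A probes disagreed. A further one passed, at 0.27, and the others had differences of -0.07 and 0.11. At an unadjusted p under 0.05, 2 of the 11 genes were higher and 2 lower. Beside KMT2A these were RBBP5 at 0.29 (adjusted p = 0.0985 from limma), SETD1A at -0.19 (adjusted p = 0.0531) and PAXIP1 at -0.13 (adjusted p = 0.0815), named after their values were seen.

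Of the acetyltransferases, EP300 had log2 signals of 9.93, 9.75 and 9.84 with IL-17A and of 10.23, 10.10 and 9.99 in the controls. All IL-17A values were below all control values, although the highest IL-17A array and the lowest control were close. The difference of -0.26 was the largest of the 10 genes at their brightest probes (1.20-fold lower, standard error 0.08, 95% interval -0.46 to -0.07). Its unadjusted p was 0.0172 and its adjusted p 0.0912 from limma, and its within-slide value of -0.17 was smaller in size. EP300 passed under 1 of 18 alternative settings, an intensity trend in the variance model.

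CREBBP, the close paralogue of EP300, had log2 signals of 8.96, 9.07 and 9.02 with IL-17A and of 8.89, 8.92 and 9.11 in the controls. The groups overlapped, with the highest value in a control. The difference was 0.04 (standard error 0.07, 95% interval -0.14 to 0.22, adjusted p = 0.717 from limma). Of 6 other acetyltransferase genes, 0 passed the test by limma, 1 had an unadjusted p under 0.05 (KAT2A, 0.16, adjusted p = 0.106, named after its value was seen), and the median was 0.08.

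Of 6 deacetylase and co-repressor genes, whose products work against the acetyltransferases, 1 passed. Of the 6, 3 were higher and 3 lower, with a median of 0.01. At an unadjusted p under 0.05 were 2, NCOR1 and, in the other direction, BCL6 at -0.16 (adjusted p = 0.0547 from limma), named after its value was seen. NCOR1, a co-repressor that recruits histone deacetylases, had log2 signals of 8.97, 8.88 and 8.94 with IL-17A and of 8.69, 8.67 and 8.71 in the controls. It rose by 0.24 (1.18-fold, adjusted p = 0.0367 from limma, within-slide value 0.28), and 2 of its 3 probes passed, all 3 being higher. The MHC class II genes and their activator CIITA, which depend on CREBBP in germinal-centre B cells, did not move in 1 direction. Of the 10, 5 were higher and 5 lower, with a median of -0.002, and 0 passed the test by limma, with 3 at an unadjusted p under 0.05.

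Of the DNA methylation genes, DNMT1, which copies methylation to new strands at replication, had log2 signals of 13.08, 13.28 and 13.19 with IL-17A and of 13.02, 13.07 and 13.18 in the controls. IL-17A replicate 1, from the slide of the controls, lay within their range and the other IL-17A arrays above it. The difference was 0.09 (standard error 0.07, 95% interval -0.08 to 0.27, adjusted p = 0.405 from limma), with a within-slide value of -0.01.

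DNMT3A, which sets new methylation, was measured by 3 probes. The brightest had 8.41, 8.50 and 8.46 with IL-17A and 8.26, 8.40 and 8.44 in the controls, a difference of 0.09 (standard error 0.06, adjusted p = 0.343 from limma). The other probe of the same transcript, NM_175629, differed by 0.02 (adjusted p = 0.702) and the probe of NM_175630 by -0.08 (adjusted p = 0.399). The groups overlapped at all 3.

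TET2 was measured by 4 probes, which disagreed in direction. The probe assigned to NM_017628, a shorter TET2 transcript, had log2 signals of 4.50, 4.88 and 4.74 with IL-17A and of 3.86, 4.02 and 4.18 in the controls. Every IL-17A array lay above every control, and replicate 1, the one scanned with the controls, was the lowest of the IL-17A arrays. The signal rose by 0.69 (standard error 0.13, 95% interval 0.37 to 1.00), from a mean of 16.2 to one of 26.1, a 1.61-fold change with an unadjusted p of 0.00189 and an adjusted p of 0.0408 from limma. The within-slide value was 0.48. The probe was dim, although above the lowest signals that counted as well above background, which were 3.62 to 4.32 in linear intensity across the arrays. Without any 1 of the 6 arrays it no longer passed the test, with differences of 0.60 to 0.79 and adjusted p of 0.0519 to 0.147. Under normexp background correction, whose offset of 50 makes log2 differences at dim probes smaller, the difference was 0.14 (adjusted p = 0.0276 from limma). With slide as a block it was the within-slide value.

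The other TET2 probes were assigned to NM_001127208, the full-length transcript. The brightest had 8.12, 8.28 and 8.20 with IL-17A and 8.14, 8.09 and 8.11 in the controls, a difference of 0.08 (standard error 0.05, adjusted p = 0.315 from limma, within-slide value 0.002). The second had 7.38, 7.58 and 7.45 against 7.23, 7.30 and 7.37, and the third had 6.53, 6.46 and 6.33 against 6.61, 6.72 and 6.67. The second was thus higher with IL-17A on every array and the third lower on every array, by small amounts. Their differences were 0.17 (adjusted p = 0.155) and -0.23 (adjusted p = 0.0838), and neither passed. The arrays do not show which transcripts a probe bound, and this was not tested.

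**Figure D3:**
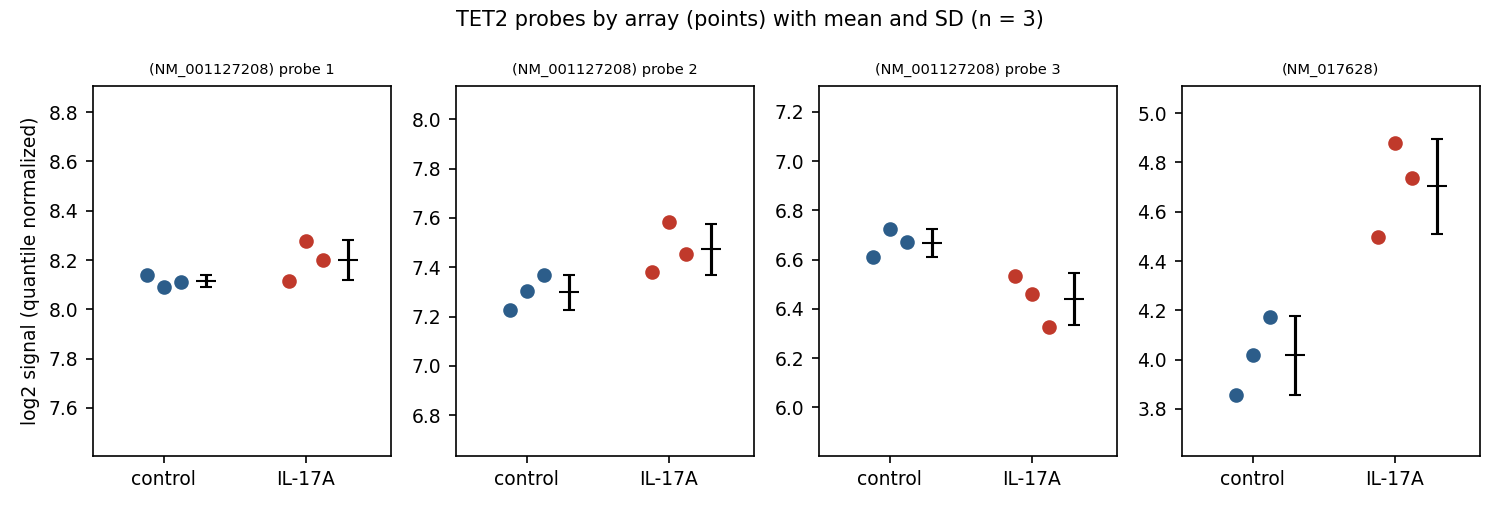
Log2 signal of the 4 TET2 probes on each array (points), with the mean and SD of each group (n = 3), each panel spanning the same range on the log2 scale. The NM_017628 probe was higher on all 3 IL-17A arrays by 0.69 on average, whereas the other panels differ by 0.08, 0.17 and -0.23.

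Of 7 other genes of DNA methylation and its removal, 1 passed the test, and the median was -0.05. TET1, an enzyme with the same activity as TET2, had log2 signals of 6.54, 6.44 and 6.51 with IL-17A and of 6.25, 6.27 and 6.22 in the controls at its brightest probe. It was higher there by 0.25 (adjusted p = 0.0355 from limma, within-slide value 0.30). A dimmer TET1 probe went the opposite way, at -0.18 (adjusted p = 0.103), with every IL-17A array below every control. Lower values at an unadjusted p under 0.05 were found for 2 genes, named after their values were seen. These were UHRF1, which brings DNMT1 to replicating DNA, at -0.18 (adjusted p = 0.0604), and HELLS, a chromatin remodeller, at -0.17 (adjusted p = 0.0999).

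ARID1A had log2 signals of 8.11, 7.85 and 7.998 with IL-17A and of 8.18, 8.08 and 8.01 in the controls. The groups overlapped, and IL-17A replicate 2 had the lowest value. The difference was -0.10 (standard error 0.08, 95% interval -0.31 to 0.10, adjusted p = 0.438 from limma), and the within-slide value of 0.02 had the opposite sign. Of the other 15 genes of the BAF complex, 1 passed the test. SMARCC2, a core subunit, had log2 signals of 14.04, 14.04 and 14.04 with IL-17A and of 13.78, 13.84 and 13.89 in the controls, and rose by 0.21 (1.15-fold, adjusted p = 0.0471 from limma). At an unadjusted p under 0.05, 3 of the 15 were higher and 4 lower, and the median was 0.07. Of 8 other chromatin genes mutated in lymphoma, 0 passed by limma, 1 had an unadjusted p under 0.05 (NSD2, -0.14, named after its value was seen), and the median was 0.02. A dimmer probe passed in a gene of each of these lists whose brightest probe did not, named after their values were seen. These were SMARCE1, a BAF subunit, at 0.26 (adjusted p = 0.0422 from limma) beside 0.02 at its brightest probe, and TBL1XR1, a co-repressor subunit, at 0.26 (adjusted p = 0.0327) beside 0.11.

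**Figure D4:**
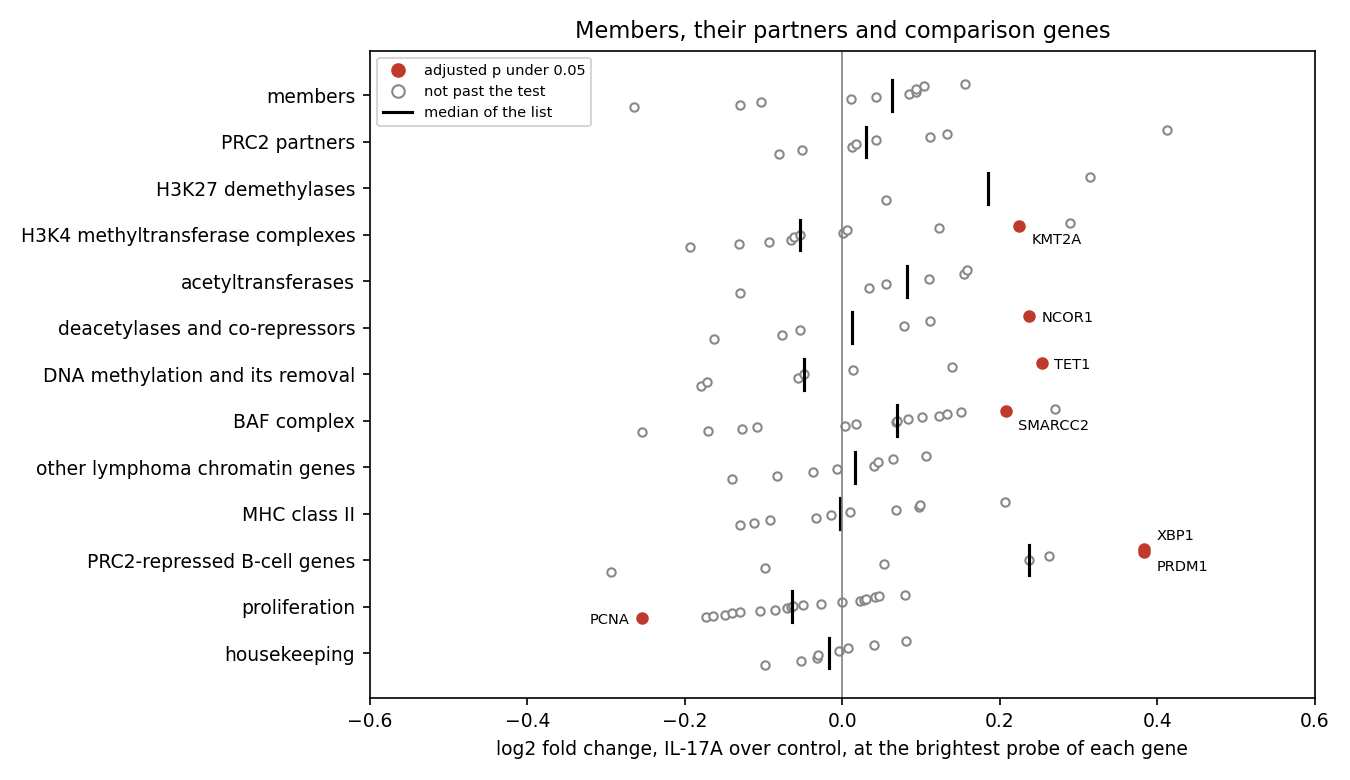
Log2 fold change, IL-17A over control, of each tested gene at its brightest probe, by list (red, adjusted p under 0.05; open grey, not past the test; black bars, median of the list). Members lie between -0.26 and 0.16. The median lies farthest from 0, at 0.24, for the PRC2-repressed genes, a list chosen, like the others, with earlier results of these data known.

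Several of these regulators are more abundant in dividing cells, so genes of proliferation were set beside them. Of 20, 1 passed the test, with 6 higher, 14 lower and a median of -0.06. PCNA, the sliding clamp of DNA replication, had log2 signals of 12.58, 12.58 and 12.56 with IL-17A and of 12.87, 12.82 and 12.79 in the controls. It fell by 0.25 on the log2 scale (adjusted p = 0.0327 from limma), and its other probe also passed, at -0.20. Of the 10 members 7 were higher, among them EZH2 at 0.10 and DNMT1 at 0.09, beside 7509 of all 14747 genes. The within-slide values of EZH2 and DNMT1 were 0.07 and -0.01. The 3 lower members were KMT2D at -0.13, EP300 at -0.26 and ARID1A at -0.10. None of the members passed, and any link of their values to proliferation was not tested. Of 8 housekeeping genes, 0 passed by limma, 1 had an unadjusted p under 0.05 (B2M, 0.08, named after its value was seen), and the median was -0.02.

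The label of a B-cell line was checked against markers. The B-cell markers MS4A1, CD79A, CD79B, PAX5, CD22 and BLK were well above background on all 6 arrays, PAX5 with low mean log2 signals, 3.85 in the IL-17A group and 3.67 in the control group. None of these 6 passed the test by limma (differences -0.17 to 0.25), with 1 at an unadjusted p under 0.05, CD79A at -0.17 (adjusted p = 0.0629). The summed intensity of 7 T and NK cell markers was 206 to 225 with IL-17A and 198 to 214 in the controls, and 1 of them passed, CD3E, a chain of the T-cell receptor complex, which fell by 0.46 on the log2 scale (adjusted p = 0.0401 from limma). Of these 7 markers 5 were higher with IL-17A, among them CD2, named after its value was seen, at 0.51 (adjusted p = 0.0539 from limma). CD3E and CD2 were both dim. Mean log2 signals were 2.78 with IL-17A and 3.24 in the controls for CD3E, and 3.16 and 2.65 for CD2. Of 6 monocyte markers, CD14 and ITGAM were tested, with a summed intensity of 89.7 to 94.5 with IL-17A and 94.7 to 139 in the controls, and CSF1R, S100A8 and S100A9 were not well above background on any array. Of 7 mesenchymal markers, 4 were tested, with sums of 32.5 to 37.0 and 34.2 to 47.5, and COL1A2, COL3A1 and THY1 were not well above background on any array. The monocyte sums did not overlap between the groups, although the highest IL-17A sum of 94.5 and the lowest control sum of 94.7 were close. Of all single genes, 40.6% had groups that did not overlap. Neither CD14 at -0.07 (adjusted p = 0.584 from limma) nor ITGAM at -0.39 (adjusted p = 0.206) passed. The part of these sums in the values above was not tested.

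The 8 genes outside the members that passed the test at their brightest probe, KMT2A, NCOR1, TET1, SMARCC2, XBP1, PRDM1, PCNA and CD3E, all changed by less than 1.5-fold. Without control replicate 3, XBP1, PRDM1 and PCNA still passed, at adjusted p of 0.0477, 0.0477 and 0.0479. In every other fit that left out 1 array, none of the 8 passed, with an adjusted p of up to 0.171. With slide as a block, which leaves IL-17A replicate 1 against the controls, the 8 differences ran from -0.36 for CD3E to 0.40 for PRDM1. Their signs could not change in this fit, since the groups of these 8 genes did not overlap. Without normalization between arrays none of the 8 passed, with adjusted p of 0.0593 for CD3E to 0.301 for SMARCC2. Normexp background correction adds an offset of 50 to each intensity, which makes log2 differences at dim probes smaller. With it CD3E was at -0.05 (adjusted p = 0.416 from limma) and TET1 at 0.10 (adjusted p = 0.0872), and PRDM1 passed at 0.17 (adjusted p = 0.0172). With scaling to the 75th percentile SMARCC2 was at 0.13 (adjusted p = 0.169) and KMT2A at 0.23 (adjusted p = 0.0695).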

How the data were processed

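RNA of 3 SU-DHL-2 samples with IL-17A and 3 controls was measured on 1-colour arrays, and groups were taken from the sample titles. The authors deposited scanner files (Agilent Feature Extraction 11.0.1.1 per the labels) with an intensity per spot, background subtracted and not normalized between arrays, and a table of quantile normalized log2 values deposited by the authors, used as an alternative. Control spots and 61 non-uniform spots were left out, intensities under 1 were set to 1, and log2 values of the 43118 spots were averaged into 34127 probes and quantile normalized, as in the study's methods. Probes positive, significant and well above background on at least 3 of 6 arrays were tested (23945) with limma 3.58.1 in R 4.3.3, two-sided, without covariates. No spot was saturated, and the number of arrays limits the precision. Genes were named through RefSeq accessions, with names of GRCh38.p14. No probe coordinates are given, since the array design uses an older genome build. Slides were inferred from shared scans.

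The members and the 16 other lists were chosen with earlier results of these data known. Named were all members with every probe, list genes with an adjusted p under 0.05 (at most 4 per direction, and any past the 1.5-fold rule) and the B-cell markers, of which 1 is not reported here, and genes named otherwise are marked. EED, SETD1B, KAT6A, TET3 and LYZ were not analysed here. The procedure was tested on simulated data. The alternatives were scaling to the 75th percentile or no normalization, normexp (offset 50), the authors' log2 values, stricter and looser detection filters, dim signals set to the detection limit of their array, an intensity trend, the methods' t-test, replicate and slide blocks, gene means over probes, and leaving out arrays 1 at a time.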

Additional observations from a re-analysis of the deposited data

How the results depend on the processing

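The count of members that passed the test higher, and the count past the 1.5-fold rule, was 0 under all 18 alternatives. The count that passed lower, 0 in the results above, was 1 (KMT2D) under normexp background correction, with no filter on detection, with the methods' t-test and with the mean over probes, and 2 (KMT2D and EP300, adjusted p = 0.0284 and 0.038) with an intensity trend in limma, and it was 0 in each fit that left out 1 array. With slide as a block the value is IL-17A replicate 1 minus the controls. On this value 4 members had the opposite sign, SUZ12 at -0.025, CREBBP at -0.015, DNMT1 at -0.011 and ARID1A at 0.023. Leaving out 1 array at a time gave SUZ12 values of -0.0080 to 0.031 and CREBBP values of -0.00031 to 0.111. It also moved members that did not pass, EZH2 to between 0.056 and 0.156, KMT2C to between 0.074 and 0.214, DNMT1 to between 0.046 and 0.146, DNMT3A to between 0.040 and 0.13, TET2 at its brightest probe to between 0.045 and 0.126 and ARID1A to between -0.166 and -0.033. The lowest sizes came without IL-17A replicate 2, or, for KMT2C and DNMT3A, without control replicate 1. The count of members at an unadjusted p under 0.05, 2 in the results above, was 0 without normalization, 3 under normexp and 4 with the mean over probes. It was 1 to 3 without 1 array and 2 under each other alternative, the slide block left aside.

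The TET2 probe of NM_017628 was higher under all 17 alternatives that gave it a value, with an unadjusted p under 0.05 in each and an adjusted p under 0.05 in 5 (range 0.0165 to 0.152). Its direction could not change with slide as a block or without 1 array, since its groups did not overlap. Arrays with the same replicate number shared little of their deviation from the group means (correlations -0.087, -0.0025 and -0.047). The sample titles do not say whether the samples were paired. With a replicate block the difference at this probe was 0.69 (adjusted p = 0.124 from limma), and 4 of all tested probes passed in place of 1818. The number of probes that passed was 46 without normalization (21 higher and 25 lower, beside 1060 and 758), 3846 with an intensity trend and 2 to 983 without 1 array. At the 1.5-fold rule it was 522, and 15 under normexp, 299 on probes detected on all 6 arrays and 978 with no filter. Of 418 further values for single genes, 310 kept their direction and side of the threshold, 91 no longer passed, 10 newly passed and 7 changed sign. Many of the 310 belong to results that had not passed and so could not lose a call. The 91 all belong to the TET2 probe of NM_017628 and the genes outside the members that passed. Each of these had 17 values. The number that no longer passed ran from 8 for XBP1, PRDM1 and PCNA to 13 for CD3E, and was 12 for the TET2 probe. The causes of these changes were not tested. Dim probes and 3 arrays per group limit the precision.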
